A study of Rattus norvegicus with 65 samples.

Results

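The nicotinic acetylcholine receptor subunits of the hypothalamus were examined across a study of weight loss surgery and gut hormone treatment in rats. The members were 9 neuronal subunit genes, Chrna2, Chrna3, Chrna4, Chrna5, Chrna6, Chrna7, Chrnb2, Chrnb3 and Chrnb4, taken by gene symbol from a count table of 38513 genes. All 9 were found and all 9 were among the 21871 genes with enough counts to be tested. The table held RNA sequencing counts of 65 hypothalami of male Wistar rats, 37 of which belonged to batch A and 28 to batch B.

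The paper describes the animals as made obese by diet before they were assigned to a group. Bypass animals underwent Roux-en-Y gastric bypass (RYGB; 11 of batch A, 3 of batch B), and Sham animals a sham operation (5 and 6). BWM animals had the sham operation and restricted food, so that their body weight matched that of the bypass animals (7, batch A). PYY animals received the gut hormone peptide YY by osmotic minipump with saline injections (4, batch B). Lira animals received injections of liraglutide, an agonist of the glucagon-like peptide receptor, with saline in the pump (5, batch B), and PYY_Lira animals received both drugs (5 and 5). Saline animals received saline by both routes (3 and 5). Animals labelled Lean (6, batch A) formed the 8th group and were taken to be the group on low-fat diet alone. The label does not say whether they too had first been made obese. All groups other than BWM and Lean had a free choice of a high-fat and a low-fat diet. Each animal gave 1 library. BWM and Lean libraries existed in batch A alone and PYY and Lira libraries in batch B alone, so their contrasts with the controls rest in part on a batch term in the model.

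Nicotinic receptors are pentameric cation channels that open when acetylcholine binds. Alpha subunits carry the main face of the binding site, and beta subunits and the accessory alpha5 subunit set the affinity, conductance and assembly of the channel. In the brain most receptors combine alpha4 with beta2 or consist of alpha7 alone. Receptors with alpha3 and beta4 are typical of the medial habenula and of autonomic ganglia, and those with alpha6 and beta3 of midbrain dopamine neurons. In the hypothalamus nicotinic signalling is known for its effect on appetite and body weight.

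Library depth ran from 20041010 to 36539941 counts on genes (median 27379945), and no pair of libraries of a group agreed within sampling noise. Levels are given as normalized counts, which are counts divided by the relative library size after TMM scaling. Fold changes are log2 values with their standard error (SE) from edgeR's quasi-likelihood model with group and batch, and adjusted p is the Benjamini-Hochberg value over all genes tested, with a threshold of 0.05. The tissue label was checked with 10 defining hypothalamic genes (Pomc, Agrp, Npy, Hcrt, Pmch, Avp, Oxt, Sim1, Otp and Nr5a1). Their summed level was between 10258 and 217009 normalized counts in 53 libraries and between 1222 and 3267 in the other 12. These 12 were Sham 2, 6 and 10, Saline 3 and 4, Lira 3 and 4, Lean 2 and 5, BWM 1, PYY 2 and PYY_Lira 8, and none was a Bypass library. Another 4 stood apart by markers of neighbouring tissue. Saline 5 and 7 had the habenular gene Gpr151 at 1205 and 2474 normalized counts, Sham 1 had the thalamic gene Prkcd at 13387, and BWM 5 had the pituitary hormone Prl at 347684. Over 14 lists of such markers with 80 genes, 6 genes were higher and 2 lower in Bypass vs. Sham, where 13% of all genes passed. They were 4 midbrain dopamine markers, the choroid plexus gene Kl and the microglial gene Cx3cr1, and, on the lower side, the habenular gene Htr5b and the thalamic gene Tnnt1. For many results that such a library changed in sign, call or size, the value without it is given.

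Read per kilobase of exon, the subunits fell into an abundant and a scarce set. Chrnb2 stood highest with a median of 347.6 normalized counts per kilobase over the 65 libraries, and it exceeded Chrna4 in 47 of them. Chrna4 followed with a median of 243.1 and exceeded Chrna7, with a median of 186.8, in 48. In the Sham group alone Chrna7 had the highest median per kilobase of all subunits. The other 6 subunits were far lower. Chrna3 had a median of 16.4 per kilobase and lay below Chrna7 in 62 of 65 libraries. Below Chrna3 came Chrnb4 (7.41), Chrna6 (7.41), Chrna2 (6.57), Chrnb3 (5.97) and Chrna5 (3.94), and their order was not fixed, since each neighbour in it was the higher in between 29 and 38 of the 65 libraries. The scarce subunits were also the ones that varied. The coefficient of variation over the libraries was 27.6% for Chrna7, 47.7% for Chrnb2 and 60.1% for Chrna4, against values between 98.6% for Chrna2 and 273% for Chrna3.

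**Figure D1:**
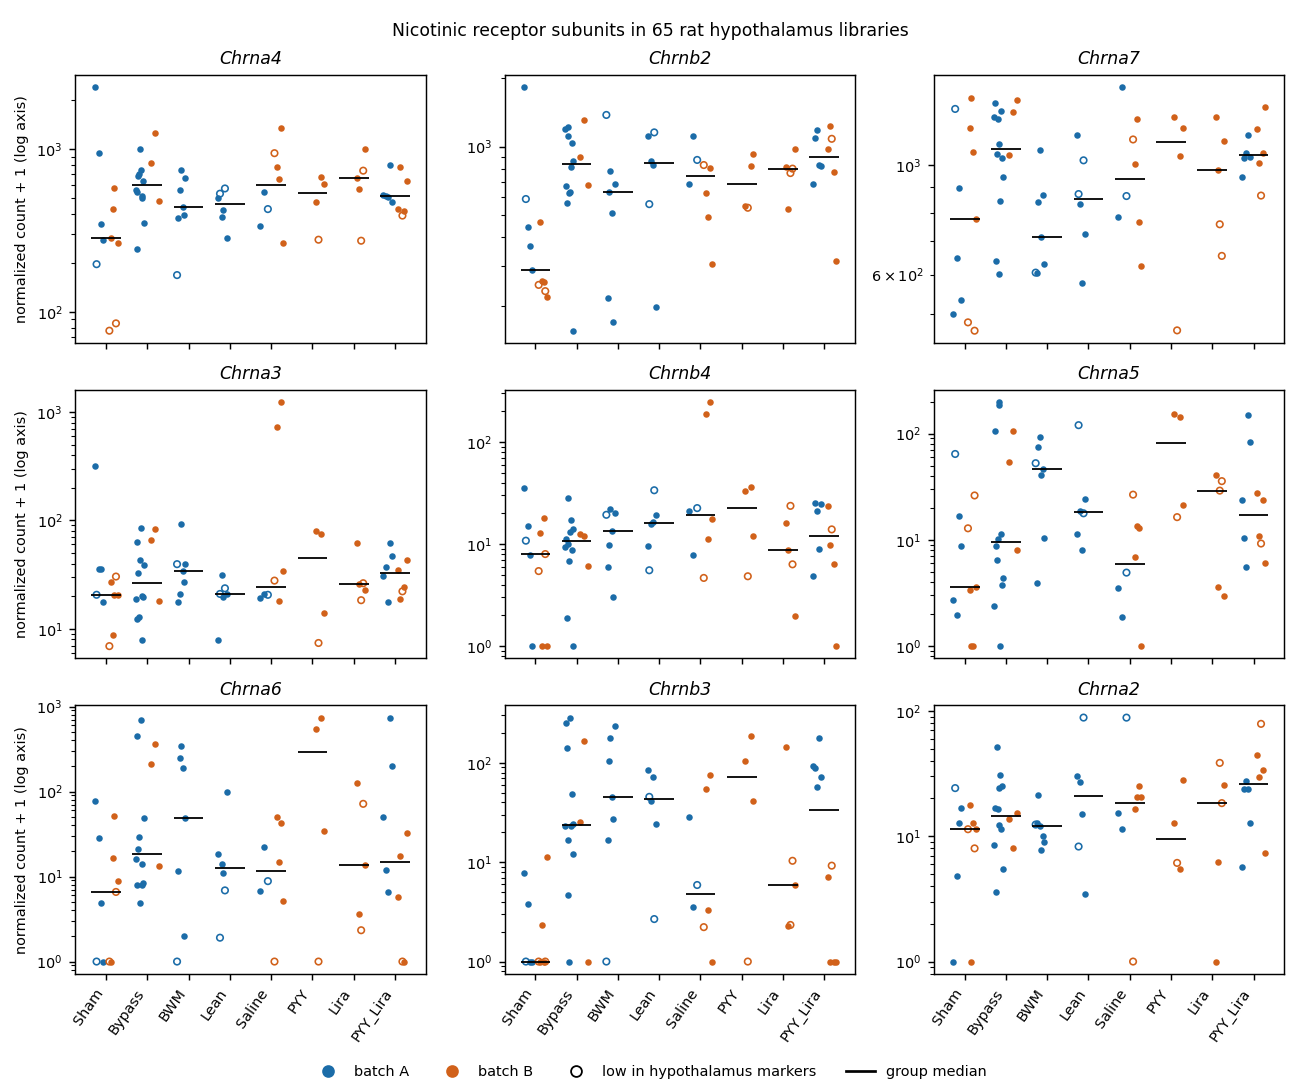
Normalized counts of the 9 subunits in each of the 65 libraries, by group and batch. The vertical axes are logarithmic after adding 1, lines are group medians and open circles are libraries low in hypothalamic markers. The points of Chrnb3 lie near 0 in the Sham group and spread up to 285 in the Bypass group, and the highest points of Chrna3 (1233) and Chrnb4 (245) belong to a Saline library.

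Chrna4 and Chrnb2 encode the subunits of the main high-affinity nicotine receptor of the brain. Chrna4 lies on chromosome 3 (176533182 to 176547965, minus strand, build Rnor_6.0) and Chrnb2 on chromosome 2 (189088570 to 189096785, minus strand). Chrnb2 had 218 to 1831 normalized counts in the Sham group with a median of 285, and 154 to 1314 in the Bypass group with a median of 839. The highest Sham value belonged to Sham 1. Without it the other 10 Sham libraries reached no more than 587, and the groups still overlapped. The log2 fold change of Chrnb2 in Bypass vs. Sham was 0.80 (SE 0.30, adjusted p = 0.0581) and missed the threshold. It became 1.28 (adjusted p = 0.00109) without Sham 1, and 1.32 (adjusted p = 0.00816) without all 16 libraries that stood apart. It did not pass when only the 12 libraries low in hypothalamic markers were left out. Within batch A it was 0.20 (adjusted p = 0.775) and within batch B 1.79 (adjusted p = 0.0319), and the difference between batches was not past the threshold. Among the markers, the residual r of Chrnb2 (Pearson's r of log2 CPM after group and batch, over 65 libraries, as a description) was between -0.64 and -0.42 for the 4 oligodendrocyte genes. The 5 microglial genes went both ways, from -0.78 for Aif1 to 0.65 for Cx3cr1. Of the 5 neuronal genes Rbfox3 had 0.69, but Snap25, Syt1, Eno2 and Stmn2 had -0.14, 0.16, 0.11 and -0.05. The summed oligodendrocyte level was 240784 to 1147430 normalized counts in Sham and 183404 to 1187780 in Bypass, with 0 of the 4 genes past the threshold, and its part in the level of Chrnb2 was not tested.

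Chrna4 had 75.5 to 2419 normalized counts in the Sham group with a median of 285, and 243 to 1250 in the Bypass group with a median of 598. Again the highest value was that of Sham 1, and 13 of the 14 Bypass libraries lay above the Sham median. For Chrna4 the log2 fold change was 0.26 (SE 0.33, adjusted p = 0.623) with all libraries and 0.91 (adjusted p = 0.0225) without Sham 1. It did not pass without the 12 libraries low in hypothalamic markers or without all 16 that stood apart. It was -0.51 within batch A and 1.57 within batch B, neither past the threshold. In the remaining groups the medians of Chrna4 ran from 439 in BWM to 663 in Lira, and those of Chrnb2 from 630 in BWM to 901 in PYY_Lira, with overlapping ranges.

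Chrna7 encodes the subunit of the homomeric, calcium-permeable receptor that is bound by alpha-bungarotoxin. It lies on chromosome 1 (123897341 to 124039263, minus strand). Its count was not a whole number in 35.4% of the libraries, so some of its reads were split with other places or genes in the counting, and how far this moved its level is unknown. It was the steadiest subunit. Its normalized counts ran from 461 to 1360 in Sham (median 778), from 600 to 1348 in Bypass (median 1075) and from 603 to 1071 in BWM (median 715). The ranges overlapped between all of these groups. The log2 fold change of Chrna7 was 0.39 (SE 0.17, adjusted p = 0.105) in Bypass vs. Sham and 0.46 (SE 0.19, adjusted p = 0.333) in Bypass vs. BWM. With single libraries left out the former ran from 0.33 to 0.51, the highest being that without Sham 2 (adjusted p = 0.0496). Sham 2 was low in hypothalamic markers. Without all 12 such libraries, or all 16 that stood apart, Chrna7 did not pass.

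Chrna5, Chrna3 and Chrnb4 form one cluster on chromosome 8, in that order. Chrna5 (59561817 to 59590172, plus strand) ends 3835 bases from Chrna3 (59594007 to 59607122, minus strand), which lies 3367 bases from Chrnb4 (59610489 to 59629073, minus strand). Chrna3 and Chrnb4 encode the subunits of the ganglionic and habenular receptor, and Chrna5 an accessory subunit that joins either this receptor or the one of alpha4 and beta2. The 250 bases before the start of these neighbours are shown because 2 of the 3, Chrna3 and Chrnb4, varied together across the libraries. They are RefSeq sequences of the build GRCr8, written 5′ to 3′ on the strand of the gene, with each GGGCGG or CCGCCC, the letters of the GC box on either strand, in capitals. Chrna3 lies at chr8:64311252-64311501 (minus strand), Chrnb4 at chr8:64333110-64333359 (minus strand) and Chrna5 at chr8:64265629-64265878 (plus strand).
Chrna3: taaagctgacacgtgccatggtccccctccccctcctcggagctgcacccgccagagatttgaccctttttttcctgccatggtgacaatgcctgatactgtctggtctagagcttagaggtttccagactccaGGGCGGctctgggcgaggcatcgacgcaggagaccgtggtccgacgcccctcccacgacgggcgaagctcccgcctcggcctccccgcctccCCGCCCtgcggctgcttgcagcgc
Chrnb4: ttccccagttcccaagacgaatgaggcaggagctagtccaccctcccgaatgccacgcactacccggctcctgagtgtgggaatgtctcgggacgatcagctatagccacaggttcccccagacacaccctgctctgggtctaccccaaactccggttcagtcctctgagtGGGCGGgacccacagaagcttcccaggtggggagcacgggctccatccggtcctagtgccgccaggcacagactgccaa
Chrna5: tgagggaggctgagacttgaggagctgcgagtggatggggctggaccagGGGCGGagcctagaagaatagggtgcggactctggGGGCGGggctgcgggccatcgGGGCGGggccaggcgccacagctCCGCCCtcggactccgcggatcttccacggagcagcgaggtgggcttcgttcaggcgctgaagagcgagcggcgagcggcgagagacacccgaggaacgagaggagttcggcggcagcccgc
Chrna3 held 2 such boxes, Chrnb4 held 1 and Chrna5 held 4. In the same window Chrna4 held 3, and Chrna7 and Chrnb2 held 1 each, so all 6 subunits in the promoter table had at least 1, against 30.5% of 33469 promoters of the same length. The letters CCAAT or ATTGG were in none of the 6 windows and in 34.0% of all promoters. TATAAA or TTTATA was in none of the 6 and in 12.9% of all, and CAGCTG, which reads the same on both strands, in none of the 6 and in 12% of all. The GC content of the 3 windows shown was 65.2% (Chrna3), 62% (Chrnb4) and 70.4% (Chrna5), and the median over all promoters was 51.2%. These matches describe letters and not binding.

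Chrna3 and Chrnb4 were set apart by 2 Saline libraries. In the Saline group Chrna3 had 17.1 to 1233 normalized counts with a median of 23.3, and Chrnb4 had 3.66 to 245 with a median of 18.4. Saline 7 held both maxima, and Saline 5 followed with 723 for Chrna3 and 188 for Chrnb4, while the other 6 Saline libraries had at most 33.3 and 21.5. In these same libraries the habenular transcription factor Pou4f1 was at 356 (Saline 5) and 824 (Saline 7) normalized counts, and the summed level of the 5 habenular markers reached 11075, against a median of 1500 over the 65 libraries. Gpr151 was at 0 in 26 and Pou4f1 at 0 in 24 of the 65 libraries. How far habenular tissue contributed to the subunit levels was not tested, and in bulk RNA more cells of a type and more RNA per cell cannot be told apart.

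The fold changes against Saline followed these libraries. With all libraries Chrna3 had a log2 fold change of -2.59 in PYY (SE 0.88), -3.11 in Lira (SE 0.84), -2.99 in PYY_Lira (SE 0.67) and -2.41 in Sham (SE 0.65) vs. Saline. Chrnb4 was lower likewise, with -1.62, -2.61, -2.31 and -2.72. None passed the threshold, the smallest adjusted p being 0.176 for Chrnb4 in Sham vs. Saline. Without Saline 5 and 7, Chrna3 had log2 fold changes of 1.15, 0.62, 0.50 and 1.0 and Chrnb4 of 1.0, 0.01, -0.02 and -0.42 in the same order. The sign of Chrna3 thus turned in each of the 4 contrasts, and again none passed. Both libraries belonged to batch B. With both of them kept but Sham 1 left out, Sham vs. Saline passed for both genes. Chrna3 then had -3.32 (adjusted p = 0.0132) and Chrnb4 -3.06 (adjusted p = 0.0228). Within batch B Chrna3 in Sham vs. Saline was -4.48 (adjusted p = 0.00359), within batch A it was 2.13, and the difference between batches had an adjusted p of 0.0540.

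In the surgical groups Chrna3 had 5.92 to 317 normalized counts in Sham (median 19.6), 6.85 to 84.8 in Bypass (median 25.5) and 16.7 to 91.1 in BWM (median 32.9). The value of 317 was that of Sham 1, and the other 10 Sham libraries had at most 34.9. Chrnb4 had 0 to 34.8 in Sham (median 6.99) and 0 to 27.4 in Bypass (median 9.70). Neither gene differed beyond the spread in Bypass vs. Sham, the log2 fold change being -0.43 for Chrna3 (SE 0.60, adjusted p = 0.639) and 0.00080 for Chrnb4 (SE 0.62). Sham 1 set the sign for Chrna3, which was 0.86 (adjusted p = 0.286) without it.

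Chrna5 was near 0 in most controls and higher in part of the animals of other groups, among them Lean 2 at 119 normalized counts. Chrna5 had 0 to 63.3 normalized counts in Sham with a median of 2.59, 0 to 197 in Bypass with a median of 8.45, and 2.94 to 92.8 in BWM with a median of 45.1. All 7 BWM libraries lay above the Sham median, and the ranges overlapped. Chrna5 had a log2 fold change of 1.96 (SE 0.78, adjusted p = 0.0820) in Bypass vs. Sham and 1.68 (SE 0.95, adjusted p = 0.452) in BWM vs. Sham. The highest Sham value, 63.3 in Sham 2, was in a library low in hypothalamic markers. Without the 12 such libraries Sham reached at most 15.7 and the log2 fold change in Bypass vs. Sham was 3.54 (adjusted p = 0.0312). Chrna5 had a residual r (Pearson's r of log2 CPM after group and batch, over 65 libraries, as a description) of 0.45 to 0.61 with the 5 midbrain dopamine markers and of 0.33 to 0.51 with the 5 cortex markers. Of the 5 Bypass libraries with the most Chrna5, 4 (Bypass 2, 7, 12 and 13) had the dopamine transporter gene Slc6a3 at 768 to 3676 normalized counts, and Bypass 6 had it at 4.84. The part of such tissue in the level of Chrna5 was not tested.

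In the PYY animals Chrna5 had 153, 15.4, 143 and 20.1 normalized counts, against 0 to 25.6 in Saline with a median of 4.92. PYY 1 and PYY 3 lay above every Saline library and the other two did not. Its log2 fold change in PYY vs. Saline was 3.50 (SE 1.17, adjusted p = 0.652).

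Chrna6 and Chrnb3 are neighbours on chromosome 16. Chrna6 (68860018 to 68866718, plus strand) and Chrnb3 (68876442 to 68913628, minus strand) are 9724 bases apart. Their products join in receptors on dopamine neurons that regulate dopamine release. Both genes were scarce in Sham animals.

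Chrnb3 was the 1 subunit of 9 past the threshold in Bypass vs. Sham, a comparison in which 13% of all genes passed. It had 0 to 10.4 normalized counts in the 11 Sham libraries with a median of 0, and 7 of the 11 were at 0. The 14 Bypass libraries had 0 to 285 with a median of 22.7, and 2 of them were at 0. A total of 11 Bypass libraries lay above the highest Sham library and 3 within the Sham range. Its log2 fold change was 4.89 (SE 1.18, adjusted p = 0.00490). It was 5.15 (adjusted p = 0.0244) within batch A, and 4.92 (adjusted p = 0.0649) within batch B, where only 3 Bypass libraries stood against 6 Sham libraries. The batches did not differ in this contrast beyond the spread (adjusted p = 0.985 for the difference). Sham was also the lower of the 2 controls. In Sham vs. Saline the log2 fold change of Chrnb3 was -3.66 (SE 1.30, adjusted p = 0.240), and 1 of the 8 Saline libraries was at 0.

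The Bypass result for Chrnb3 did not rest on a single library. When each library was left out in turn the log2 fold change ran from 4.23 to 5.67 and passed the threshold in all 25 fits. Without the 12 libraries low in hypothalamic markers it was 4.52 (adjusted p = 0.0286), and without all 16 that stood apart 4.74 (adjusted p = 0.0195).

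Animals with matched weight and those labelled Lean showed Chrnb3 in a like range to the Bypass animals. The 7 BWM libraries had 0 to 236 normalized counts with a median of 44.5, and 6 of them lay above all Sham libraries. The 6 Lean libraries had 1.68 to 83.2 with a median of 42.7, and 5 of them lay above all Sham libraries. The log2 fold change in BWM vs. Sham was 4.90 (SE 1.32, adjusted p = 0.0637) and that in Lean vs. Sham 3.93 (SE 1.36, adjusted p = 0.246), so neither passed with the model of all groups. Both passed without the batch term (BWM 5.36, adjusted p = 0.00474, and Lean 4.39, adjusted p = 0.0241), and BWM passed within batch A (5.35, adjusted p = 0.0273). BWM vs. Sham also passed without BWM 1, a library low in hypothalamic markers (5.12, adjusted p = 0.0245). It did not pass when all 12 such libraries, or all 16 that stood apart, were left out. In Bypass vs. BWM the log2 fold change of Chrnb3 was -0.0037, with an SE of 0.92 that leaves wide room to either side.

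In PYY_Lira the levels of Chrnb3 lay apart by batch, but the tested difference between batches did not pass the threshold. The 5 PYY_Lira libraries of batch A had 91.6, 88.6, 56.1, 179 and 70.7 normalized counts, and the 5 of batch B had 6.02, 0, 8.23, 0 and 0. The values did not overlap, but how many of all genes separate in this way was not counted. Between batches 40.7% of all genes passed the threshold. Batch A libraries of Saline had 27.5, 2.58 and 4.90 and those of batch B had 1.22, 53.3, 2.29, 74.2 and 0, and here the batches overlapped. The log2 fold change of PYY_Lira vs. Saline in batch A minus that in batch B was 6.26 (unadjusted p = 0.00676 by edgeR's quasi-likelihood test, adjusted p = 1.0). Over all groups the batch contrast of Chrnb3 was -1.02 (SE 0.74, adjusted p = 0.349).

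Chrnb3 moved with genes of the meninges. Its residual correlation (Pearson's r of log2 CPM after group and batch, over 65 libraries, given as a description) with the 6 meningeal markers Col1a1, Col1a2, Col3a1, Slc6a13, Slc22a6 and Ogn ran from 0.71 to 0.76. All 6 markers were detected in every library. Their summed level was 397 to 10529 normalized counts in Sham, 807 to 45349 in Bypass and 938 to 48559 in BWM. In PYY_Lira it was 4129 to 23951 for the batch A libraries but 792 to 2503 for those of batch B, again without overlap. In Bypass vs. Sham 0 of the 6 markers passed the threshold, though all 6 had positive fold changes with a median log2 value of 1.40. Within batch A the 5 Sham libraries had summed levels of 397 to 1383 and 9 of the 11 Bypass libraries 3897 to 45349. The other 2, Bypass 5 and 6, had 978 and 807, and Chrnb3 at 3.64 and 0. Within batch B the Sham libraries ran from 837 to 10529, the highest being Sham 11, which also held the highest Chrnb3 of all Sham libraries. The 3 Bypass libraries of that batch had 1530, 1559 and 2198, and Chrnb3 at 24.3, 166 and 0. The part of meningeal tissue in the level of Chrnb3 was not tested.

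Chrna6 was higher in the Bypass group without passing the threshold. It had 0 to 76.4 normalized counts in Sham with a median of 5.59, 3.87 to 699 in Bypass with a median of 17.6, and 0 to 346 in BWM with a median of 47.6. Of the 14 Bypass libraries 13 lay above the Sham median, and 4 lay above the whole Sham range. Chrna6 had a log2 fold change of 2.87 (SE 1.0, adjusted p = 0.0555) in Bypass vs. Sham and 2.5 (SE 1.21, adjusted p = 0.387) in BWM vs. Sham. Without Sham 1, which held the highest Sham value, it was 3.49 (adjusted p = 0.0302) in Bypass vs. Sham, and without all 16 libraries that stood apart it was 3.03 (adjusted p = 0.106).

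Among the drug groups the median of Chrna6 was highest in the 4 PYY animals, which had 543, 0, 736 and 33.1 normalized counts. Lira animals had 123, 2.59, 1.34, 70.7 and 12.8, and Saline animals 0 to 48.5 with a median of 10.8. PYY 1 and PYY 3, the same animals that were high in Chrna5, lay above all Saline libraries. In PYY vs. Saline the log2 fold change of Chrna6 was 4.36 (SE 1.46, adjusted p = 0.652). In PYY_Lira it ran from 0 to 741 with a median of 13.9.

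High Chrna6 went along with the dopamine transporter gene Slc6a3. A total of 12 libraries had over 100 normalized counts of Chrna6, namely 4 Bypass, 3 BWM, 2 PYY, 2 PYY_Lira and 1 Lira library. They had 626 to 3930 normalized counts of Slc6a3, and the other 53 libraries 0 to 454. Over the 5 midbrain dopamine markers (Slc6a3, En1, En2, Pitx3 and Nr4a2) the residual r of Chrna6 ran from 0.36 to 0.81 with a median of 0.76. That of Chrnb3 had a median of 0.59.

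The same marker list differed between Bypass and Sham. In that contrast 4 of its 5 genes passed the threshold, all higher in Bypass, where 13% of all genes passed. The log2 fold change was 7.26 for Slc6a3 (adjusted p = 0.00300), 3.41 for Pitx3 (adjusted p = 0.0227), 2.83 for En1 (adjusted p = 0.0167) and 2.61 for En2 (adjusted p = 0.0239). The median of the 5 genes was 2.83 here, 2.71 in BWM and 1.12 in Lean vs. Sham. It was 4.30 in PYY, 1.88 in Lira and 2.25 in PYY_Lira vs. Saline. In each of these other contrasts 0 of the 5 passed. The summed level of the 5 markers was 82.5 to 965 normalized counts in Sham and 168 to 4716 in Bypass. Slc6a3, En2 and Pitx3 were at 0 in at least 1 Sham library, and En2 and Pitx3 in at least 1 Bypass library. Slc6a3 was at 768 to 3676 in Bypass 2, 7, 12 and 13. It was at 4.84 to 70.2 in the other Bypass libraries and at 0 to 19.1 in Sham. En1 and Pitx3 were also highest in those Bypass libraries, and the marker contrasts were not refitted without them. The part of midbrain tissue in the levels of Chrna6 and Chrnb3 was not tested.

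**Figure D2:**
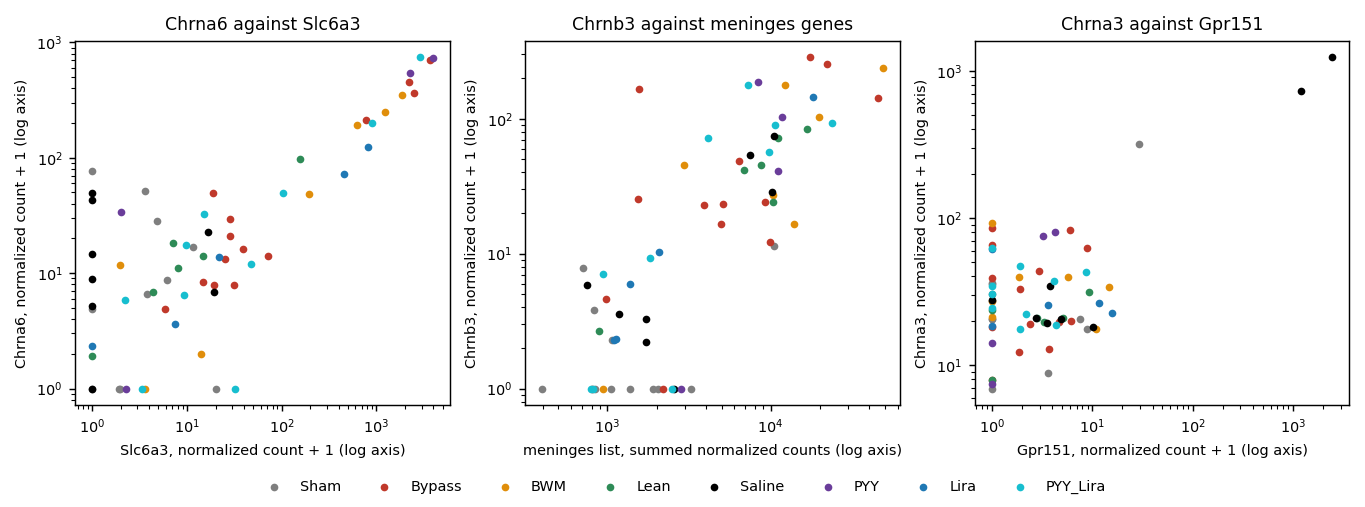
Levels of 3 subunits against markers of neighbouring tissue in the 65 libraries, coloured by group, on logarithmic axes. Chrna6 is plotted against Slc6a3, Chrnb3 against the summed meningeal markers and Chrna3 against Gpr151. The 12 libraries with over 100 normalized counts of Chrna6 lie at 626 to 3930 of Slc6a3, and the 2 Saline libraries with 723 and 1233 of Chrna3 lie at 1205 and 2474 of Gpr151.

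Chrna2, whose subunit forms receptors with beta2 or beta4 in small populations of interneurons, was low in all groups. It lies on chromosome 15 (42808897 to 42825179, plus strand). Its normalized counts ran from 0 to 87.2 over the 65 libraries with a median of 12.7, and the maxima were those of Lean 5 and Saline 3, both low in hypothalamic markers. Its log2 fold change was -1.22 in Sham vs. Saline (SE 0.61, adjusted p = 0.381) and 1.36 in Lean vs. Sham (SE 0.69, adjusted p = 0.406). Without Saline 3 the former was -0.49, and without Lean 5 the latter was 0.55. In Bypass vs. Sham it was 0.63 (SE 0.55, adjusted p = 0.462). The 6 markers of basal forebrain cholinergic neurons had a residual r with Chrna2 between 0.51 and 0.63.

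By count, few of the 9 subunits passed in any contrast. The 1 called in Bypass vs. Sham, 11.1% of the 9, stood beside 13% of all genes, and the 5 with an unadjusted p under 0.05 beside 30% of all genes. Of the 9 subunits 8 had a positive fold change in this contrast, with a median log2 value of 0.63, where the median over all 21871 genes was -0.02. In BWM vs. Sham 0 of 9 passed by edgeR (0.320% of all genes did), and 2 had an unadjusted p under 0.05 (12.3% of all genes). In Lean vs. Sham (0% of all genes called) it was 0 of 9 with 2 at an unadjusted p under 0.05 (12.2%). In Bypass vs. BWM (0.343%) it was 0 of 9 with 1 at an unadjusted p under 0.05 (12.6%). The median log2 fold change of the 9 was 0.25, 0.58 and 0.38 in these 3 contrasts, beside -0.00090, -0.02 and -0.03 over all genes. DESeq2 called 1 in BWM vs. Sham, Chrnb3, and 0 in Lean vs. Sham and in Bypass vs. BWM.

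The gut hormone groups gave 0 of 9 subunits past the threshold by edgeR in each contrast with Saline. All genes gave 0% in PYY, 0% in Lira and 0.00457% in PYY_Lira, and 3, 2 and 2 subunits had an unadjusted p under 0.05, beside 7.54%, 2.08% and 2.53% of all genes. DESeq2 called 1 subunit, Chrna3, in PYY_Lira and 0 in the others. The medians of the 9 subunits were -0.04, 0.01 and 0.26, beside -0.01, -0.02 and -0.02 over all genes. In Sham vs. Saline edgeR called 0 of 9 (0.0137% of all genes), with 5 at an unadjusted p under 0.05 (12.9% of all genes), and DESeq2 called 1, Chrnb4. Of the 9 subunits 8 had a negative fold change there, with a median of -0.69 beside 0.01 over all genes. In batch B vs. batch A 40.7% of all genes passed but 0 of 9 subunits did, and 0 had an unadjusted p under 0.05 (47.7% of all genes). The largest batch difference among the abundant subunits was that of Chrnb2, with -0.42 (adjusted p = 0.133).

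**Figure D3:**
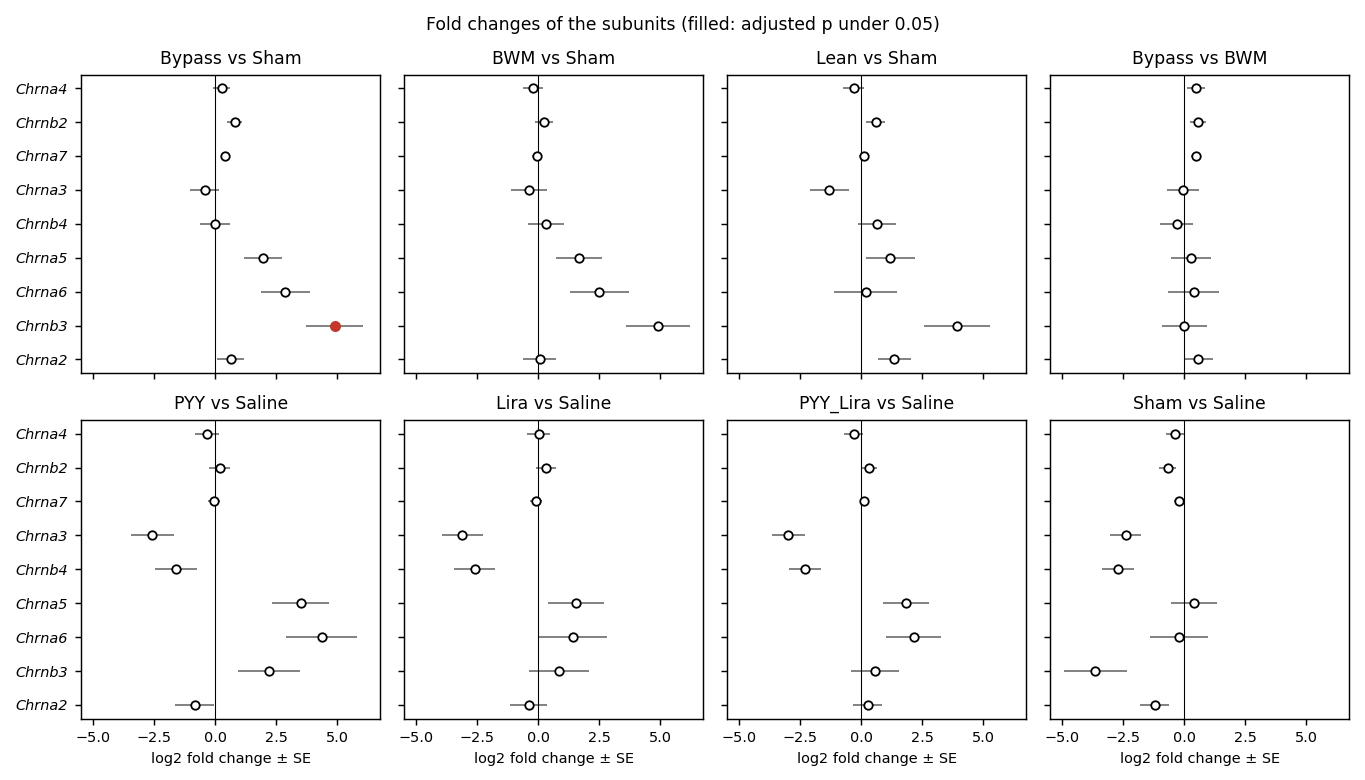
Log2 fold changes of the 9 subunits in 8 contrasts between groups, with bars of 1 SE, from edgeR's model of all 65 libraries. Chrnb3 at 4.89 in Bypass vs. Sham is the one value past the adjusted threshold (filled), and the values below -2 in the contrasts with Saline belong to Chrna3, Chrnb4 and, for Sham, Chrnb3.

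Residual levels of the subunits were compared pairwise over the 65 libraries, after group and batch were taken out, to see which of them varied together within groups. Of the 36 pairs 30 had a positive Pearson's r, and 12 had an adjusted p under 0.05 (permutation test with 100000 resamples, adjusted over the 36 pairs). All 12 were positive in both batches, and 10 also passed by Spearman's rho. The closest were the 2 genomic neighbours. Chrna6 with Chrnb3 had r = 0.66 and Spearman's rho = 0.62 (adjusted p = 0.00012 for r by permutation), with r = 0.60 for batch A alone and 0.73 for batch B. It was 0.62 without the 2 libraries farthest from the median of Chrna6. Since 12 libraries formed a high set of Chrna6, r was also taken apart, and it was 0.49 among those 12 and 0.48 among the other 53.

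Chrna3 with Chrnb4 had r = 0.61 and rho = 0.52 (adjusted p = 0.00012 by permutation), with r = 0.44 for batch A alone and 0.72 for batch B. Without Saline 5, Saline 7 and Sham 1 it was lower, at 0.41. Their neighbour Chrna5 was less close, with r = 0.39 to Chrna3 and 0.14 to Chrnb4. Chrna4 and Chrnb2, which are on different chromosomes and form one receptor, had r = 0.41. Chrna3 with Chrna4 had 0.52, which fell to 0.36 without the 2 farthest libraries. Chrna7 and Chrna2 had no pair past the threshold.

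**Figure D4:**
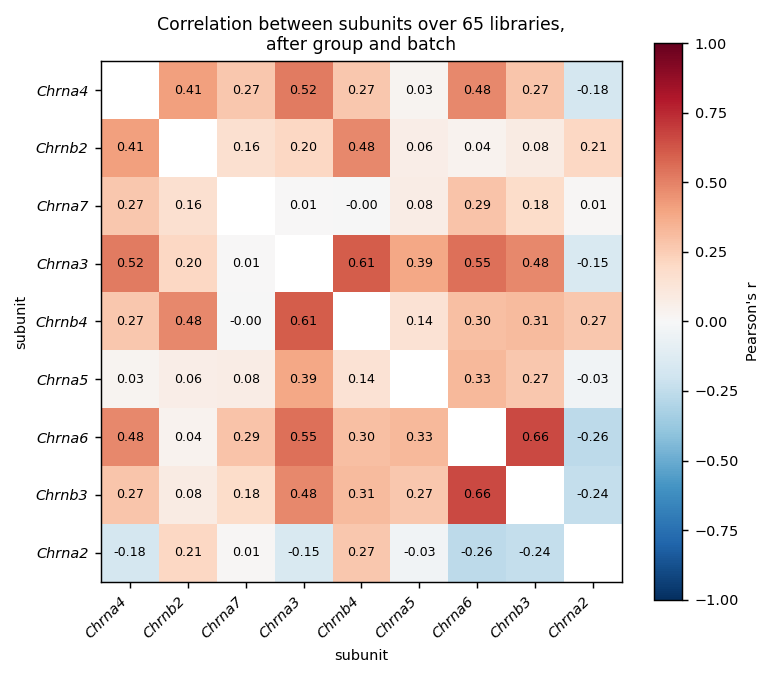
Pearson's r between the residual log2 levels of each pair of subunits over the 65 libraries, after group and batch. The darkest cells are Chrna6 with Chrnb3 (0.66) and Chrna3 with Chrnb4 (0.61), and the negative values all involve Chrna2 or are near 0.

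Ratios between partner subunits were tested for a shift between groups. Each log2 ratio was taken after 1 was added to both normalized counts, which weighs on the ratio where counts are near 0. For Chrna4 to Chrnb2, Chrna3 to Chrnb4, Chrna6 to Chrnb3 and Chrna5 to Chrna4, an exact permutation test within batches was run in 8 contrasts, 32 tests in all, and 0 had an adjusted p under 0.05, while 5 had an unadjusted p under 0.05. The smallest unadjusted p, 0.00794 (two-sided exact permutation test, adjusted p = 0.139), was that of Chrna5 to Chrna4 in PYY vs. Saline of batch B. There the mean log2 ratio was -3.20 ± 1.52 (SD, n = 4) in PYY and -6.46 ± 1.14 (SD, n = 5) in Saline. This contrast had 126 permutations, so 0.00794 was the lowest p its two-sided test could give. Lira vs. Saline, with 252 permutations and 5 libraries in each group, had the same floor. A single result at that floor could not pass the adjustment over 32 tests. In Bypass vs. Sham the log2 ratio of Chrna4 to Chrnb2 was -0.35 ± 0.69 (SD, n = 14) and -0.17 ± 1.05 (SD, n = 11), with an exact permutation p of 0.599.

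The genes whose residual levels were most like each subunit were listed as a description, the 3 highest r of all genes tested over the 65 libraries. Chrnb2 had the closest, Spock2 (0.97), Nmnat2 (0.96) and Tspyl4 (0.95). Chrna4 was closest to Ccdc136 (0.86), Ntng1 (0.84) and Adcy8 (0.83). Among the genes nearest to Chrna7 were Dcaf12 (0.76) and Pak3 (0.76). The scarce subunits had other neighbours. Chrna6 was closest to Foxa2 (0.83), Slc6a3 (0.81) and Ret (0.80), genes of midbrain dopamine neurons. Chrna3 was closest to Pou4f1 (0.69), Rab37 (0.66) and Lef1 (0.66), and Chrnb4 also to Pou4f1 (0.58), then Epn3 (0.55) and Rab11fip5 (0.55). Without Saline 5, Saline 7 and BWM 5 the r of Pou4f1 was 0.51 to Chrna3 and 0.42 to Chrnb4, and in both lists the other 2 genes then stood above it. Chrnb3 was closest to Gpr81 (0.83), Aox3 (0.83) and LOC103689965 (0.80), Chrna5 to Pitx3 (0.61), Kcns1 (0.57) and Mlip (0.56), and Chrna2 to Lhx6 (0.68), a transcription factor of inhibitory interneurons, Elfn1 (0.65) and Foxo6 (0.64).

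Few other genes of cholinergic signalling passed the test. A list of 25 genes was taken, with the muscle and sensory nicotinic subunits, the enzymes and transporters of acetylcholine, the muscarinic receptors and factors that assemble or modulate nicotinic receptors, and 23 of them were tested. In Bypass vs. Sham 1 of the 23 passed, where 13% of all genes did. It was Chrm5, the muscarinic receptor of midbrain dopamine neurons, which had 0 to 37.4 normalized counts in Sham (median 9.07) and 5.59 to 159 in Bypass (median 91.9). A total of 12 of the 14 Bypass libraries lay above the Sham range, and the log2 fold change was 2.63 (SE 0.50, adjusted p = 0.00146). The Bypass libraries with the most Slc6a3 (2, 7, 12 and 13) had Chrm5 at 100, 66.7, 82.5 and 108, within the range of the other Bypass libraries. The part of midbrain tissue in the level of Chrm5 was not tested. None of the 5 genes of acetylcholine synthesis, transport and breakdown passed, among them Chat (-0.45, adjusted p = 0.728), the enzyme that makes acetylcholine.

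In each of the other contrasts between groups 0 of the 23 passed by edgeR, and between 0 and 4 had an unadjusted p under 0.05. Over all genes the shares in these contrasts were 0% to 0.343% adjusted and 2.08% to 12.9% unadjusted. Between batches, where 40.7% of all genes passed, 2 of the 23 did. Lypd1 (0.56, adjusted p = 0.000240) and Lypd6 (0.35, adjusted p = 0.0398), membrane-anchored proteins that bind nicotinic receptors, were higher in batch B. The sensory subunits Chrna9 and Chrna10 had 0 to 119 and 0 to 74.3 normalized counts over the 65 libraries.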

How the data were processed

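The authors enriched poly-A RNA, made stranded libraries and sequenced them from one end. Per the submitters' processing notes, reads were trimmed with cutadapt 1.16, mapped with STAR 2.7.2b to Rnor_6.0 and counted with featureCounts 1.6.4. Counting used strand, and reads with several places or genes were counted in fractions, so the deposited values are estimated counts per gene, of which 30.3% of the nonzero ones were not whole. They were rounded here.

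Groups and batches came from the labels. The low-count filter (filterByExpr of edgeR 4.0.16, R 4.3.3; minimum count 10, minimum total 15), TMM scaling and a robust quasi-likelihood fit with group and batch were applied to all 65 libraries. Ratios used exact permutation within batches and correlations 100000 permutations (scipy 1.17.1). Replicate p-values measure the spread between animals of a group. Alternatives included DESeq2 1.42.0, RLE scaling, no filter, no batch term and a replicate block. Scripts were tested on simulated data.

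The 9 subunits were all named, along with listed cholinergic genes that passed, the 3 nearest genes of each subunit, and markers; 1 nearest gene is not reported here. Members and lists were chosen with earlier results of these data known. Chromosome numbers were read from the RefSeq gene table, whose genes matched each sequence in at least 96.3% of cases. The labels state no pairing of replicate numbers. In Lira vs. Saline alone the deviations of all 5 same-numbered pairs correlated (r 0.24 to 0.38), but 3 of these pairs join different batches.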

Additional observations from a re-analysis of the deposited data

Results flagged for a closer look

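In 8 of 81 sets of libraries of a subunit, group and batch, 9.88%, the highest or lowest library was separated from the rest by more than Dixon's 95% limit, on the log2 scale. Chance alone gives about 1 in 20. Sets of 3 or 11 libraries were not tested, so no Bypass library and no batch A library of Saline could be flagged. For Chrnb3, Sham 11 was the highest of its 6 libraries at 10.4 normalized counts, where the others had 0 to 1.31, and Lean 5 the lowest of 6 at 1.68, where the others had 23.1 to 83.2. For Chrna3, Sham 1 was the highest of 5 at 317, beside 16.7 to 34.9, and Lean 1 the lowest of 6 at 6.93, beside 18.5 to 30.6. For Chrnb2, Sham 7 was the highest of 6 at 464, beside 218 to 256. For Chrna4, PYY_Lira 4 was the highest of 5 at 799, beside 471 to 521. For Chrna2, Saline 4 was the lowest of 5 at 0, beside 15.4 to 23.9, and Sham 8 the lowest of 6 at 0, beside 6.99 to 16.7. Of these libraries, Sham 1, Lean 5 and Saline 4 were also among the 16 that stood apart by tissue markers.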

How the results depend on the processing

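The number of subunits past the threshold in Bypass vs. Sham, 1 with all libraries, was 2 without the libraries low in hypothalamic markers and 3 without all that stood apart, both chosen after seeing the data. It was 4 without the batch term, 2 with the compared groups alone and 4 by DESeq2. Leaving out single libraries gave 1 to 4, with 4 without Sham 1 or Bypass 11, 3 without Bypass 6 or Sham 2 and 2 without Sham 9. In BWM vs. Sham the count of 0 became 1 without the batch term, with the compared groups alone, within batch A and by DESeq2, and was 0 to 1 with single libraries left out (1 without BWM 1, BWM 2 or Sham 11). In Lean vs. Sham it became 1 without the batch term and with the compared groups alone. It became 1 by DESeq2 in PYY_Lira vs. Saline, and in Sham vs. Saline 1 by DESeq2 and within batch B, and 0 to 2 with single libraries left out (2 without Sham 1). The cause was not tested. With the replicate number as a block the count in Bypass vs. Sham was still 1, and the block changed no other count. In contrasts other than Lira vs. Saline, samples with the same number did not deviate together in every pair.

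Of 2849 fold changes under alternatives, 1 called value missed the threshold (Chrnb3 within batch B, 4.92), 36 uncalled ones passed it and 0 called ones changed sign, while uncalled ones changed sign in 191. Of 36 pairwise correlations, 12 passed with all libraries, and 8 to 15 under alternatives. For the scarce subunits, whose counts were low, depth limits the precision.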
